A study of Mus musculus with 6 samples.

Results

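The genes described here serve iron uptake, iron storage and export, the control of both, haem breakdown and iron-sulfur cluster assembly. They are Tfrc, Slc11a2, Slc40a1, Fth1, Ftl1, Ireb2, Aco1, Ncoa4, Hmox1 and Iscu, taken by symbol from the authors' deposited gene table. All 10 had a row and were tested, among 14575 tested measurements of 51482 in the table. The RNA came from wild-type mouse embryonic fibroblasts immortalised with SV40, a virus whose large T antigen keeps primary cells dividing. Both groups were wild type and carried SV40, and they differed in oxygen: 3 samples were kept at 21% oxygen (normoxia) and 3 at 0.5% oxygen (hypoxia), each for 16 h. Iron handling after low oxygen is the question here, and the comparison is hypoxia against normoxia. Per the series design the replicates are biological, and whether the cultures come from more than 1 immortalised line is not stated.

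Cells take up transferrin-bound iron through the transferrin receptor, move it out of the endosome through a divalent metal transporter, store it in ferritin and export it through ferroportin. The iron regulatory proteins hold the balance. When iron is scarce they bind a stem-loop called the iron-responsive element (IRE). Binding in a 5′ UTR blocks translation, as in ferritin mRNA, and binding in the 3′ UTR of transferrin receptor mRNA protects it from decay. Haem oxygenase returns iron from haem, and iron-sulfur clusters, used by respiratory enzymes and by one of the iron regulatory proteins, are built on a mitochondrial scaffold. Iron is also a cofactor of the enzymes that mark hypoxia-inducible factors (HIFs) for destruction.

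IRE-like stem-loops were present in transcripts of 5 of the 10 genes, and they are shown because they divide the genes by the place of the element. The search asked for a C, then 5 bases, then the 6-base loop CAGTGN, then 5 bases that pair with the first 5 (G-T pairs allowed, at most 1 unpaired base in the 3′ arm), on the sense strand of GENCODE M21 basic protein-coding transcripts (GRCm38). Capitals mark the unpaired C below the upper stem and the 6-base loop. Tfrc carries 4 in the last exon of Tfrc-201, 1 of its 2 basic transcripts, all in the 3′ UTR. Slc11a2 carries 1 in the 3′ UTR of Slc11a2-205, which is 1 of its 2 basic transcripts. Slc40a1, Fth1 and Ftl1 carry 1 each in the 5′ UTR, that of Ftl1 in 1 of its 2 basic transcripts.
Tfrc, chr16:32631219-32631248, plus strand: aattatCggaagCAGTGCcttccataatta
Tfrc, chr16:32631598-32631627, plus strand: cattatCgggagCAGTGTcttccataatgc
Tfrc, chr16:32631663-32631692, plus strand: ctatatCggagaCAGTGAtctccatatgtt
Tfrc, chr16:32631710-32631739, plus strand: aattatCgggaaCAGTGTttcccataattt
Slc11a2, chr15:100395152-100395181, minus strand: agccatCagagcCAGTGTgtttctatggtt
Slc40a1, chr1:45925464-45925493, minus strand: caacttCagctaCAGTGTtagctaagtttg
Fth1, chr19:9982732-9982761, plus strand: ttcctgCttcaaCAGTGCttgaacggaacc
Ftl1, chr7:45459778-45459807, minus strand: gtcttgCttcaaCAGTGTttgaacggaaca
Such a stem-loop occurs somewhere in a transcript of 3.97% of 21875 protein-coding genes, in a 5′ UTR of 0.325% and in a 3′ UTR of 1.63%. A match describes the letters and is not evidence that the element is bound. Elements that depart from the pattern would not be found, so the counts need not be complete.

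**Figure D1:**
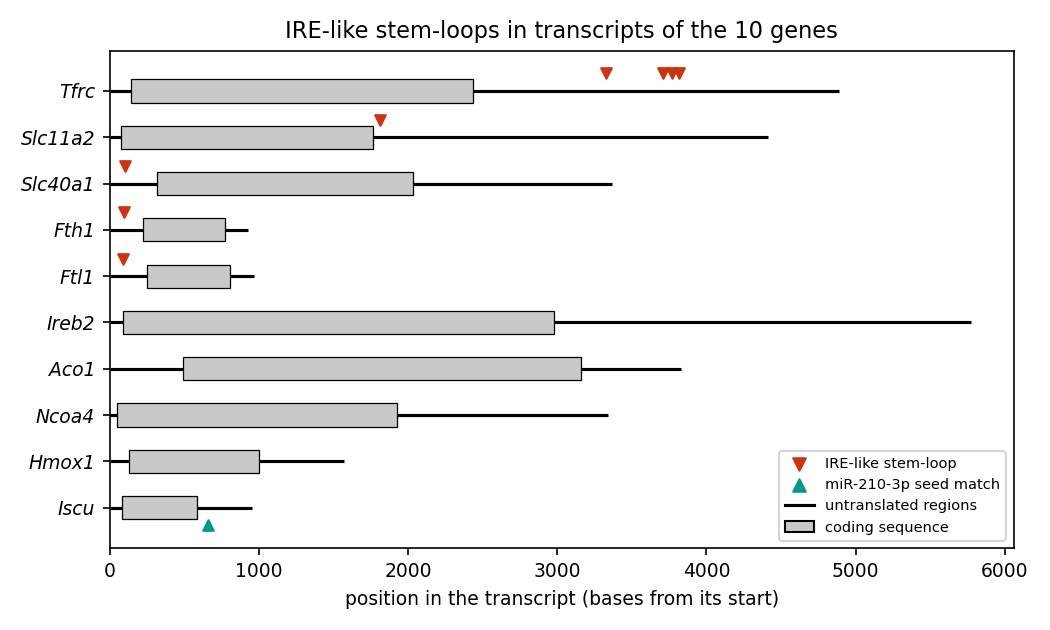
Positions of IRE-like stem-loops (downward triangles) and of the miR-210-3p seed match (upward triangle) along 1 transcript of each gene, in bases from the transcript start, with the coding sequence as a box and the untranslated regions as lines. The 4 Tfrc elements and the Slc11a2 element lie after the box, those of Slc40a1, Fth1 and Ftl1 before it, and the seed match is in the 3′ UTR of Iscu.

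The 10 genes were divided between rises, falls and no call. Rises and falls are differences with a q below 0.05 in the authors' deposited table. Tfrc, Ftl1 and Hmox1 rose, Slc11a2, Slc40a1 and Iscu fell, and Fth1, Ireb2, Aco1 and Ncoa4 were not called. The table calls 57.9% of all tested measurements, 28.9% higher and 29% lower, so 6 calls among 10 genes is a share near the background. The same 6 had a q below 0.01, as did 48.7% of tested measurements. With a change of at least 2-fold as well, the table calls 18.9% of measurements (9.03% higher and 9.87% lower), and of these 10 genes Hmox1 and Tfrc higher and Iscu lower. The median log2 fold change of FPKM + 1 was -0.07 over the 10 genes and -0.0094 over all tested measurements. The values are the authors' group FPKM (fragment counts scaled to transcript length and library size), 1 per condition with no values of single samples, so whether single samples overlap cannot be seen, no SD is given and the depth is unknown.

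**Figure D2:**
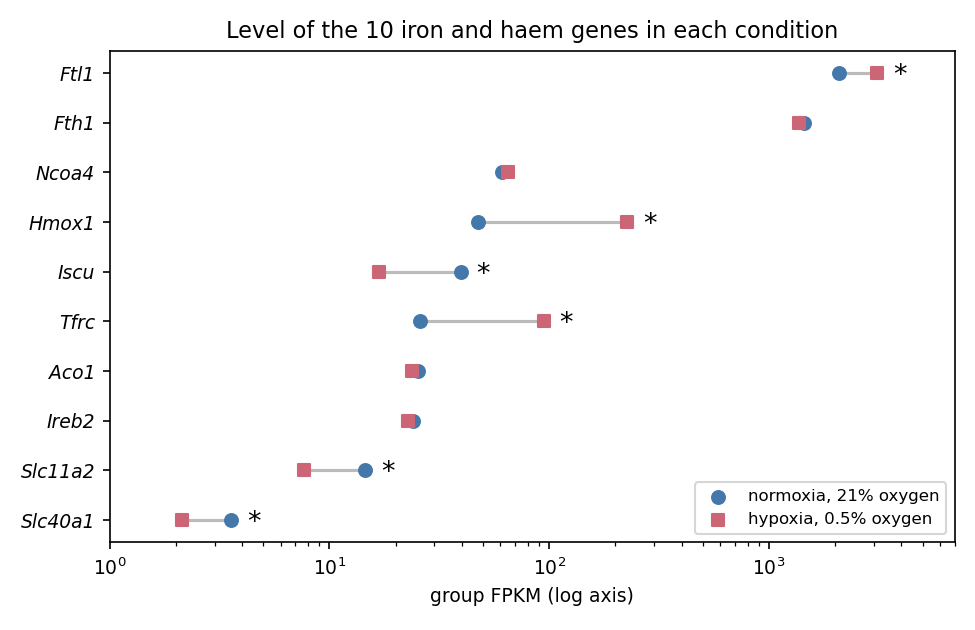
Group FPKM (log axis) of each gene in normoxia (circles) and hypoxia (squares), ordered by the normoxia level, asterisks marking the authors' calls. Hmox1 and Tfrc show the longest upward lines, to 226 and 94.6 FPKM, Iscu the longest downward line, to 16.8 FPKM, and the markers of Fth1, Ncoa4, Aco1 and Ireb2 nearly coincide.

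Uptake genes moved in opposite directions. Tfrc (ENSMUSG00000022797; chromosome 16, 32608920 to 32632794, plus strand), the transferrin receptor gene, rose from 25.8 FPKM in normoxia to 94.6 FPKM in hypoxia, 3.67-fold (log2 fold change 1.87, q = 0.000139 in the authors' deposited table). Its change was the 569th highest of all 14575 tested measurements. Slc11a2 (ENSMUSG00000023030; chromosome 15, 100387898 to 100425072, minus strand), which encodes the endosomal divalent metal transporter DMT1, fell from 14.6 to 7.65 FPKM, 1.91-fold (log2 fold change -0.93, q = 0.000139 in the authors' deposited table). The ratio of Tfrc to Slc11a2 FPKM went from 1.77 to 12.4. Tfrc and Slc11a2, like Ftl1, have annotated transcripts with and without an element, and a value per gene does not separate them. The separate levels of these transcripts were not analysed here.

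A core of the hypoxia response element, ACGTG, lies beside the start of Tfrc, and it is shown because Tfrc is a rising gene with promoter sequence in the RefSeq table (GRCm38.p6). These are the 60 bases before the GENCODE start of the gene, with ACGTG in capitals, beginning 26 bases before that start.
Tfrc, chr16:32608860-32608919, plus strand: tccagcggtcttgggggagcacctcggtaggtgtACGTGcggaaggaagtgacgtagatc
Promoter windows of 300 bases were found for 6 of the 10 genes (Tfrc, Fth1, Ftl1, Ireb2, Aco1 and Ncoa4), and Slc11a2, Slc40a1, Hmox1 and Iscu had none. On either strand, ACGTG was in both Tfrc windows, which overlap and share this match, and in 2 of 3 Ncoa4 windows, and in no window of the other 4 genes. It is in 19.6% of 32851 windows in the table. GCGTG was in windows of Tfrc, Fth1, Ftl1 and Ncoa4 and in 32.4% of all windows. TGACNNNGC, a core of the antioxidant response element, was in 1 Ncoa4 window and in 12.4% of all windows. Ncoa4, which has both hypoxia cores, was not called. A match describes letters only, and a part of these motifs in the values of Tfrc or Ncoa4 was not tested.

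The 2 ferritin genes, the most abundant of the 10, did not move together. Ftl1 (ENSMUSG00000050708; chromosome 7, 45457944 to 45459884, minus strand) encodes the light subunit, which favours the mineral core, and rose from 2081 to 3101 FPKM, 1.49-fold (log2 fold change 0.58, q = 0.000139 in the authors' deposited table). Fth1 (ENSMUSG00000024661; chromosome 19, 9980598 to 9985098, plus strand) encodes the heavy subunit, which oxidises ferrous iron, and had 1449 FPKM in normoxia against 1375 FPKM in hypoxia (log2 fold change -0.07, q = 0.524 in the authors' deposited table, not called). The ratio of Ftl1 to Fth1 FPKM went from 1.44 to 2.25. By level, Ftl1 ranked 15th of all measurements in normoxia and 14th in hypoxia, and Fth1 30th and 63rd.

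Very abundant transcripts in general had higher values in hypoxia. There were 80 tested measurements whose mean reached 1000 FPKM: 69 rose, 2 fell and 9 were not called, and their median log2 fold change was 0.46. Ftl1 lies close to that median, and Fth1 is among the 9. When both conditions were scaled to the same summed FPKM, the log2 fold change of Ftl1 became 0.35 and that of Fth1 -0.30. Ferritin genes have close copies in the genome, and the sources used here do not give how the authors assigned reads shared between copies. Of 15 rows of ferritin copies and relatives, 11 were listed at 0 in both conditions and none exceeded 22.6 FPKM, the hypoxia value of Ftl1-ps1 (16.1 FPKM in normoxia). Ftl2-ps, in a row shared with Mir692-2, went from 4.78 to 0.0519 FPKM and was not tested. Fth-ps2 went from 0.0463 to 0.479 FPKM (not called), and a shared row of Ftl1-ps2 from 0.220 to 0.156 FPKM (not tested). The Ftl1 row also carries the identifier of a microRNA gene that shares its locus.

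The gene for iron release from ferritin was not called, and the gene for iron export fell. Ncoa4 (ENSMUSG00000056234; chromosome 14, 32159865 to 32179855, plus strand), the receptor that delivers ferritin to the lysosome, had 61.1 FPKM in normoxia against 64.7 FPKM in hypoxia and was not called (q = 0.591 in the authors' deposited table). Slc40a1 (ENSMUSG00000025993; chromosome 1, 45908068 to 45926523, minus strand), the ferroportin gene, was the least abundant of the 10 and fell from 3.57 to 2.13 FPKM, 1.68-fold (log2 fold change -0.74, q = 0.000638 in the authors' deposited table). Among the genes with an IRE-like element, the 2 with 3′ elements thus split into a rise and a fall, and the 3 with 5′ elements into a rise (Ftl1), a fall (Slc40a1) and no call (Fth1). Transcript levels do not show how much of each mRNA was translated, which is where 5′ elements act.

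Transcripts of the iron regulatory proteins themselves were not called. Aco1 (ENSMUSG00000028405; chromosome 4, 40143081 to 40198338, plus strand), whose product is a cytosolic aconitase with an iron-sulfur cluster and binds IREs without it, stood at 25.4 and 23.8 FPKM (q = 0.398 in the authors' deposited table). Ireb2 (ENSMUSG00000032293; chromosome 9, 54863789 to 54912530, plus strand), whose product is removed when iron and oxygen are plentiful, stood at 23.9 and 22.9 FPKM (q = 0.582 in the authors' deposited table). Their levels were close to each other in both conditions, with a ratio of Aco1 to Ireb2 of 1.06 in normoxia and 1.04 in hypoxia. The log2 fold changes of the 4 genes that were not called lay within 0.094 of 0, and no interval is given for them. Both proteins are controlled after transcription, which these data do not measure.

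**Figure D3:**
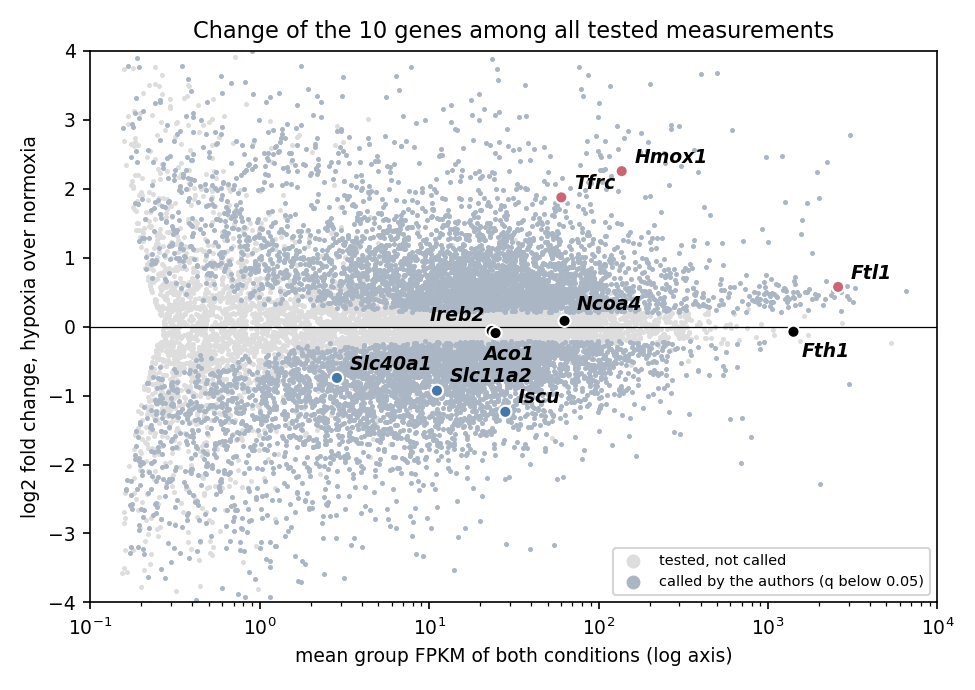
Log2 fold change of hypoxia over normoxia against mean group FPKM (log axis) for tested measurements listed above 0 in each condition and within a log2 fold change of 4, with the 10 genes labelled (red higher, blue lower, black not called). Hmox1 at 2.25 and Tfrc at 1.87 lie in the upper part of the cloud, Iscu at -1.24 in the lower part, and Ftl1 among the abundant transcripts that are mostly above 0.

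Hmox1 (ENSMUSG00000005413; chromosome 8, 75093621 to 75100589, plus strand) had the largest change of the 10. It encodes the inducible haem oxygenase, which opens haem to biliverdin, carbon monoxide and iron. Its level went from 47.4 FPKM in normoxia to 226 FPKM in hypoxia, 4.77-fold (log2 fold change 2.25, q = 0.000139 in the authors' deposited table). The constitutive enzyme gene Hmox2 rose less, from 41.9 to 56.8 FPKM, and the ratio of Hmox1 to Hmox2 went from 1.13 to 3.98. Macrophages are a known site of haem oxygenase, and their markers were near 0: 8 of 10 were under 0.5 FPKM in both conditions and the 10 summed to 1.70 FPKM in normoxia and 3.19 FPKM in hypoxia, with Adgre1, C1qa and C1qb listed at 0. The other 2 rose with Hmox1 at low levels, Cd68 from 1.32 to 2.27 FPKM and Aif1 from 0.220 to 0.737 FPKM. Their part in the Hmox1 value was not tested.

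Genes that regulate Hmox1, and genes that share its activator NRF2, were divided. That list had 14 tested genes, 6 higher, 6 lower and 2 without a call (median log2 fold change -0.06). The background was 28.9% higher and 29% lower over all tested measurements. Maff, a small MAF partner of both NRF2 and BACH1, rose from 10.5 to 142 FPKM (13.6-fold). Bach1, which encodes the haem-sensing repressor of Hmox1, rose from 6.66 to 13.8 FPKM (2.07-fold), and Nfe2l2, the NRF2 gene, from 50.2 to 61.8 FPKM (1.23-fold). The thioredoxin reductase gene Txnrd1 fell from 84.1 to 33.7 FPKM (2.50-fold) and the pentose phosphate gene Pgd from 87.8 to 51.2 FPKM (1.71-fold). Split by role after the values were seen, 4 of 5 tested regulators rose, and of 9 shared targets 2 rose, 5 fell and 2 were not called. The regulators that rose include both the NRF2 gene and the repressor gene Bach1, and Keap1 fell from 24.6 to 16.9 FPKM. The shared targets that rose were Gclc (14.3 to 18.6 FPKM) and Osgin1 (1.36-fold from 8.79 FPKM), and Nqo1, Srxn1 and Slc7a11 fell besides Txnrd1 and Pgd. Outside the naming rule, these were chosen after their values were seen.

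Other genes of haem breakdown and transport rose slightly more often than they fell. Without Hmox1, 6 of 14 were higher, 4 lower and 4 not called, at a median of 0.09. The shares over all tested measurements were 28.9% higher and 29% lower. Por, which encodes the reductase that supplies haem oxygenase with electrons, rose from 72.0 to 116 FPKM, and the haem-binding membrane protein genes Pgrmc1 and Pgrmc2 rose 1.96-fold and 2.21-fold. The haem exporter gene Flvcr1 fell from 6.87 to 5.10 FPKM and Slc46a1, a folate and haem carrier gene, from 9.57 to 5.10 FPKM. In haem synthesis 4 of 11 rose, 6 fell and 1 was not called (median -0.23), and at a q below 0.01 there were 4 rises and 3 falls. The enzyme genes Alad and Uros fell 2.23-fold and 2.35-fold, to 53.1 and 2.79 FPKM, Uros with q = 0.0123 in the authors' deposited table. The enzyme genes Cpox and Ppox rose 1.73-fold and 1.95-fold, to 26.3 and 47.6 FPKM.

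Iscu (ENSMUSG00000025825; chromosome 5, 113772748 to 113778288, plus strand), the scaffold on which iron-sulfur clusters are assembled, had the largest fall of the 10. It went from 39.5 FPKM in normoxia to 16.8 FPKM in hypoxia, 2.36-fold lower (log2 fold change -1.24, q = 0.000139 in the authors' deposited table). Only 8.57% of tested measurements had a lower log2 fold change. ISCU is a described target of miR-210, a microRNA induced in low oxygen, so the mature sequence (RefSeq, GRCm38.p6) and its match in Iscu are shown, with the seed (bases 2 to 8) and its complement in capitals.
mmu-miR-210-3p, chr7:141221407-141221428, minus strand: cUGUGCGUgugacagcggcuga
Iscu, chr5:113777978-113778007, plus strand: aagctacgcaaaACGCACActattcaccac
The match ACGCACA is in the 3′ UTR of Iscu-201 and Iscu-203, 2 of the 3 basic transcripts of Iscu, and in no 3′ UTR of the other 9 genes. It is in a 3′ UTR of 3.24% of 20987 protein-coding genes that have one. Of 449 tested genes with the match, 160 fell (35.6%) and 139 rose, and of 11595 tested genes with a 3′ UTR 32.2% fell. Mir210 is listed at 0 in both conditions and was not tested, and libraries from poly-A selected RNA do not capture the mature microRNA. A part of miR-210 in the Iscu value was not tested.

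The fall of Iscu was accompanied by falls of several partners in cluster assembly. Without Iscu, 10 of 23 tested genes on the iron-sulfur assembly list fell, 7 rose and 6 had no call. Their median log2 fold change was -0.25. Among all tested measurements 29% fell and 28.9% rose, so the share of rises on the list was near the background. Ciapin1, of the cytosolic pathway, fell from 36.9 to 14.5 FPKM (2.55-fold). Bola3 and Glrx5, which pass clusters on from the scaffold, fell to 19.6 FPKM (from 49.0) and to 13.5 FPKM (from 27.8). The ferredoxin gene Fdx1 and the co-chaperone gene Hscb went the other way, from 14.7 to 31.1 FPKM and from 15.4 to 29.5 FPKM. The related gene Fdx1l has only a shared measurement (99.1 and 91.4 FPKM, not called), so its own level is uncertain. Nfs1, the sulfur donor, shares its measurement with Cpne1, Rbm12 and a further gene (114 and 131 FPKM, not called), so its own level is uncertain.

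**Figure D4:**
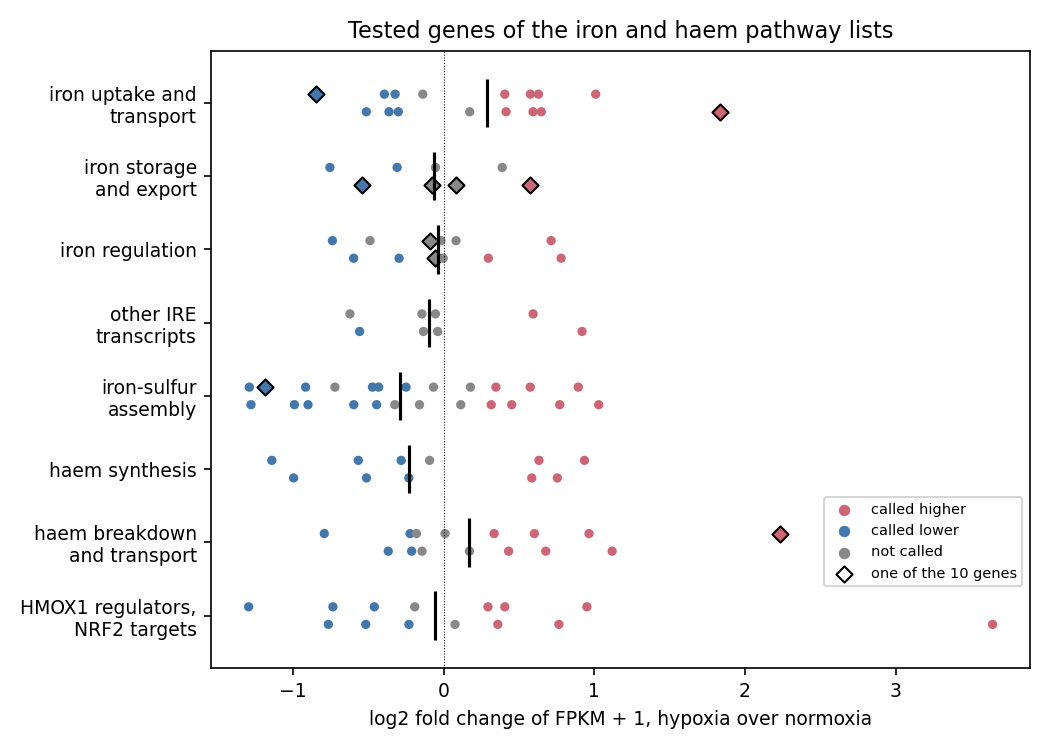
Change of each tested gene of 8 pathway lists, as the log2 ratio of FPKM + 1, hypoxia over normoxia (points, red called higher, blue called lower, grey not called), with the list median as a vertical bar and the 10 genes as outlined diamonds. Hmox1 and Tfrc are the rightmost points of their lists, Iscu is near the left end of the iron-sulfur list, and Maff is the point beyond 3.

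Further genes of iron uptake and transport rose slightly more often than they fell. Without Tfrc and Slc11a2, 7 of 14 tested genes rose, 5 fell and 2 had no call (median 0.29). Of all tested measurements 28.9% rose and 29% fell. Mcoln1, the gene of an endolysosomal channel that conducts iron, rose from 34.9 to 71.2 FPKM (2.04-fold). Slc39a8, a metal importer gene, rose from 2.21 to 4.03 FPKM, Slc22a17, a lipocalin receptor gene, from 6.24 to 10.2 FPKM, and Tfr2, the second transferrin receptor, from 0.904 to 1.87 FPKM. The ferric reductase gene Cybrd1 fell from 0.586 to 0.207 FPKM and the siderophore-binding lipocalin gene Lcn2 from 1.52 to 0.765 FPKM. Steap3, an endosomal ferric reductase, was at 0.263 and 0.159 FPKM and was not tested. Transferrin itself (Trf) shares its measurement with Srprb and another gene (62.5 and 49.8 FPKM, called lower), so its own change is uncertain.

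Around storage and regulation, Herc2, which encodes the ubiquitin ligase that removes NCOA4 when iron is high, fell from 6.17 to 3.24 FPKM (1.90-fold). The ferroxidase-like gene Hephl1 fell from 0.302 to 0.0511 FPKM, both low levels. The storage and export list had 1 rise (Ftl1), 3 falls and 4 not called of 8. None of the 3 falls (Slc40a1, Herc2 and Hephl1) was in a gene with a mean of at least 5 FPKM. The regulation list had 3 rises, 3 falls and 6 not called of 12. For comparison, 28.9% of all tested measurements were called higher and 29% lower. Fbxl5, whose product senses iron and oxygen and removes IREB2, rose from 20.4 to 35.7 FPKM (1.75-fold), while Skp1a, a subunit of the same ubiquitin ligase, fell from 129 to 84.9 FPKM. Zfp36 and Zfp36l1, of a family that speeds mRNA decay, went from 5.63 to 9.86 FPKM and from 25.7 to 15.0 FPKM. Among 8 other tested transcripts described with an IRE, 2 rose, 1 fell and 5 were not called: Epas1, the HIF-2 alpha gene, rose from 3.02 to 6.61 FPKM, Pfn2 rose 1.57-fold, and Sdhb, an iron-sulfur subunit of complex II, fell from 118 to 79.9 FPKM.

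Of 7 genes known to respond to low oxygen, taken as a check of the labels, all 7 rose. Slc2a1 rose 7.26-fold, Ldha 5.25-fold and Vegfa 5.01-fold. Across all tested measurements 28.9% rose and 29% fell. The 7 were chosen with earlier results of these data known, so the check is not independent. Fibroblast markers were present except Lum, which was below 0.5 FPKM in both conditions. Of 8 tested fibroblast markers 2 rose, 5 fell and 1 was not called (median log2 fold change -0.39). The sum over all 10 listed markers, including a measurement that S100a4 shares, went from 2554 to 3914 FPKM. It was led by Vim, which rose from 883 to 2249 FPKM. The 5 epithelial markers were also present (656 and 1054 FPKM in sum), with 2 higher, 2 lower and 1 not called (median -0.16). Krt18 (313 and 443 FPKM) and Krt19 (303 and 592 FPKM) rose, Krt8 (28.3 and 10.1 FPKM) and Cdh1 (5.93 and 3.76 FPKM) fell, and Epcam (5.97 and 5.22 FPKM) was not called. The part of either marker group in the iron gene values was not tested. Erythroid markers, relevant to haem genes, were all under 0.5 FPKM in both conditions and summed to 0.316 and 0.465 FPKM. Klf1, the only tested erythroid marker, was called higher at these low levels (0.150 to 0.457 FPKM). The 5 endothelial markers were under 0.5 FPKM. In bulk RNA, fewer cells of a type and less RNA per cell cannot be told apart.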

How the data were processed

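Per the labels' protocols, poly-A RNA was selected and libraries kept strand. The submitters' processing notes name build GRCm38, Cuffdiff 2.2.1, Cufflinks, StringTie 1.3.4d and HISAT2 2.1.0, without their roles. The authors deposited 1 gene table holding 1 FPKM per gene and condition, into which 3 replicates were combined. Per the file headers, the other columns are the authors' log2 fold change, their p-value, their q-value and a test statistic (a score, not used here). The sources used here do not give the scaling between libraries. The smallest deposited q (0.000139) is shared by 5148 measurements and does not rank them. Errors rest on the authors' q, since 1 value per condition allows no test between replicates.

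Rows repeating 1 measurement under several identifiers were counted once. Folds are ratios of the deposited FPKM. List medians use log2(FPKM + 1) over tested single-gene measurements, and measurements naming several genes were left out of list counts. The members and lists were chosen with earlier results of these data known. From each list the text names up to 4 called genes with the largest change, up to 2 against the majority, and genes whose products handle a member. Some genes that this rule takes are not reported here. Stem-loops and seed matches were searched in GENCODE M21 basic protein-coding transcripts, a step added after the values were seen, and coordinates are 1-based. Python 3.11.15 and pandas 2.3.3 were used, and the code was tested on simulated data. The planned comparison of proteins was not made.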

Additional observations from a re-analysis of the deposited data

How the results depend on the processing

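The number of called genes among the 10 was 6, and it stayed 6 at a q below 0.01, with the adjustment recomputed over measurements counted once and with single-gene measurements only. With a 2-fold threshold it was 3. Under 4 other scalings or pseudocounts the log2 fold change of each gene moved by at most 0.22, reached when both conditions were scaled to the same summed FPKM, which lowers every log2 value by that amount. No called gene changed sign, and Ncoa4, which was not called, went from 0.08 to -0.14. Of 136 recomputed values over the 10 genes, the lists and all measurements, 114 stayed within 1.5 times and 22 moved by more. Among the 22, haem synthesis had 3 rather than 6 falls at a q below 0.01, beside 4 rises at either threshold, so the more frequent direction turned. Haem breakdown had 2 rather than 4 falls there. No paired analysis was possible because the table holds 1 value per condition, and for the same reason no replicate could be left out. Depth is unknown, so the precision of low genes such as Slc40a1 and Tfr2 cannot be given.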
